A study of Mus musculus with 68 samples.

Results

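Fast excitatory input to neurons of the ventral tegmental area (VTA) is carried by 2 families of glutamate-gated ion channels, and the transcripts of their subunits were examined here in single dopamine neurons. The 10 genes were taken by their symbol from the 36172 genes of the expression table: the 4 AMPA receptor subunits Gria1, Gria2, Gria3 and Gria4, and the 6 NMDA receptor subunits Grin1, Grin2a, Grin2b, Grin2c, Grin2d and Grin3a. RNA had been drawn through the recording pipette from dopamine neurons in VTA slices of 12-month-old mice (Patch-seq), giving 33 cells from 3xTg mice and 35 cells from WT mice. The 3xTg line is homozygous for its alleles, among them the Swedish APP mutation and tau P301L, on a hybrid C57BL/6;129 background, with the APP and tau transgenes driven by a Thy1 element that is active in neurons. The WT mice were a separately bred non-transgenic line of that hybrid background, so line and transgenes cannot be told apart. Both sexes were used. The cutting solution held the glutamate receptor blocker kynurenic acid, and slices were then kept in a chamber with the NMDA receptor blocker MK-801. The mouse behind each cell was not given in the sources used here, so each genotype counts as 1 sample, no test between genotypes was possible, and every interval below covers counting error only.

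AMPA receptors open and close rapidly and carry most of the fast current, and the GluA2 subunit, made from Gria2, keeps the pore nearly closed to calcium when its transcript is edited. NMDA receptors need GluN1, made from Grin1, together with GluN2 or GluN3 subunits, pass calcium, and are blocked by magnesium at rest. In VTA dopamine neurons, these receptors drive burst firing, and the balance between AMPA receptors with and without GluA2 is known to shift with experience.

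The pore of each channel turns on a single residue at the tip of its re-entrant loop, and the coding stretch around it is shown because it is where the subunits differ in calcium passage and where Gria2 is edited. The stretches were read from the mouse genome (GRCm38, the same assembly as mm10) with the GENCODE M21 gene models. Capitals mark the codon of the Q/R site in the Gria genes and of the N site in the Grin genes, and each stretch is written 5′ to 3′ on the coding strand with introns left out.
Gria1: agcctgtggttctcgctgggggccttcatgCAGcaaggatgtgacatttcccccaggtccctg
Gria2: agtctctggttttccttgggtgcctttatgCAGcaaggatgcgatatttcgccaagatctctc
Gria3: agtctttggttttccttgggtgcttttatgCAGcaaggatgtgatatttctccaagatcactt
Gria4: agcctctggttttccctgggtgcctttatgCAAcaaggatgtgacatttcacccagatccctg
Grin1: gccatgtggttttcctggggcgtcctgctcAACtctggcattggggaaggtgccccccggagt
Grin2a: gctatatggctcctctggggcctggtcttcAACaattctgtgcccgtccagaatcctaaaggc
All 4 Gria genes hold a glutamine codon at the Q/R site in the genome, and both Grin genes shown hold an asparagine codon. In RNA, the enzyme ADAR2 edits the Gria2 codon so that it is read as arginine, which gene counts cannot show and which was not analysed here. Over the 63 bases, Gria2 and Gria3 were identical at 90.5%, and Gria1 and Gria2 at 77.8%. Grin1 and Grin2a were identical at 44.4%. The stretch lies in exons 11 and 12 of Gria2 (chr3:80702650-80706943, minus strand), across an intron, and in exon 8 of Grin2a (chr16:9653531-9653593, minus strand).

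The genes lie apart from each other in mm10, on 10 spans. The AMPA subunit genes are Gria1 at chr11:57011618-57330244, Gria2 at chr3:80684936-80802791, Gria3 at chrX:41401304-41678601 and Gria4 at chr9:4417893-4796234. The obligatory NMDA subunit gene Grin1 lies at chr2:25291177-25319163. The GluN2 genes are Grin2a at chr16:9577710-9992533, Grin2b at chr6:135729805-136173511, Grin2c at chr11:115249169-115267243 and Grin2d at chr7:45832483-45866681. Grin3a, which encodes a glycine-binding subunit of NMDA receptors with low calcium passage, lies at chr4:49661611-49845769.

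The cells held 492505 to 1678624 counts and 3695 to 10426 genes with at least 1 count, and no 2 cells had identical values. All 68 cells had counts of the dopamine neuron genes Th, Slc6a3 and Slc18a2. Of the genotypes, 3xTg cells had a median of 8511 genes and WT cells of 7476. The cell labels are numbered in runs of a single genotype. WT cells 1 to 22 (17 cells) had a median of 5233 genes, 3xTg cells 24 to 55 (21 cells) of 7648, WT cells 57 to 74 (15 cells) of 8441 and 3xTg cells 76 to 92 (12 cells) of 9308, with 3 further WT cells. What the numbers stand for was not given in the sources used here, so results are also given within the first and the second pair of runs. Markers of other cells were present in some libraries: 5 cells of each genotype had a count of Pvalb, Tmem119, P2ry12 or Aldh1l1.

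Gria2 was the most abundant subunit in both genotypes, and its level spread widely between cells. In the 35 WT cells, Gria2 ran from 0 to 1913 CPM (counts scaled to a common library total) with a median of 603, and in the 33 3xTg cells to 1374 CPM with a median of 451 and a lowest count of 3. The ranges overlapped, with 3 WT cells (2, 65 and 69) above the highest 3xTg cell and 2 (7 and 57) below the lowest. At least 10 counts of Gria2 were found in 30 of 35 WT cells (85.7%, exact 95% interval 69.7 to 95.2%) and in 30 of 33 3xTg cells (90.9%, 75.7 to 98.1%). The remaining cells of both genotypes held under 10 counts of this gene.

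Gria1, the subunit whose receptors are added to synapses during potentiation, was counted in 31 cells of each genotype. Its level ran from 0 to 1062 CPM in WT cells (median 72.8) and from 0 to 319 CPM in 3xTg cells (median 48.6). The upper end of the WT range came from few cells, since 4 of 35 WT cells held 50% or more of all WT counts of Gria1, and WT cell 6 alone held 20.1%. Gria3, an X-linked subunit that pairs with GluA2, had a median of 31.4 CPM in WT cells (0 to 1551) and of 97.9 CPM in 3xTg cells (0 to 652). At least 10 counts of Gria3 were found in 27 of 33 3xTg cells (81.8%, 64.5 to 93.02%) and in 20 of 35 WT cells (57.1%, 39.4 to 73.7%). The intervals of these 2 shares overlapped, and with a minimum of 1 count the shares lay closer, at 30 of 33 and 31 of 35 cells. Gria4, a subunit with rapid gating, was counted in 23 of 33 3xTg cells, with a median of 29.7 CPM (0 to 149), and in 22 of 35 WT cells, with a median of 12.3 CPM (0 to 507).

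**Figure D1:**
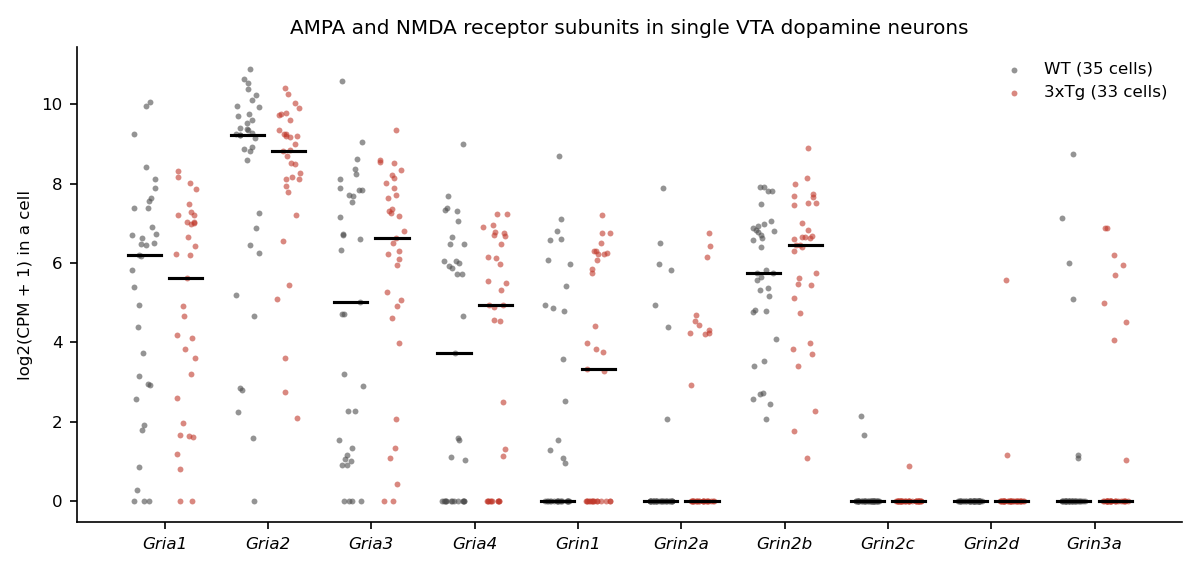
Level of each subunit in each cell as log2(CPM + 1), with WT cells in grey and 3xTg cells in red and the median as a black bar. Gria2 had the highest median in both genotypes, Gria4 and most Grin genes had many cells at 0, and the genotypes overlapped for every subunit.

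Among the NMDA subunits, Grin2b, which encodes a GluN2 subunit, was counted in all 68 cells. Its median was 52.5 CPM in WT cells, with a highest value of 242, and 86.9 CPM in 3xTg cells, with a highest value of 477. Grin1, without which no NMDA receptor forms, was counted in only 34 of the 68 cells, 18 of 33 in 3xTg (54.5%, 36.4 to 71.9%) and 16 of 35 in WT (45.7%, 28.8 to 63.4%). In each of the other 34 cells a Grin2 gene had at least 1 count while Grin1 had less than 1, which was 0 in all of them but WT cell 69 (0.902). In the cells where Grin1 was counted, its median was 70.2 CPM in 3xTg and 35.9 CPM in WT. Of the 34 cells with Grin1, 30 had at least 10 counts of it. Per kilobase of transcript, Grin2b exceeded Grin1 in 52 of the 68 cells and was below it in 16, and in the 35 cells with any value of both it was 1.11-fold of Grin1 in the median. Across cells, the level of Grin1 went with the number of genes counted (Spearman's rho of 0.49 over 68 cells), more than that of Grin2b did (rho of 0.26). A cell at 0 for Grin1 is a library without reads of it, and whether the neuron lacked its RNA was not tested.

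Grin2a, the GluN2 subunit that becomes common with maturation, was counted in 11 of 33 3xTg cells and 7 of 35 WT cells, each time beside Grin2b. Its highest value was 108 CPM in 3xTg and 235 CPM in WT, and WT cell 9 alone held 51.99% of the WT counts. Grin3a was counted in 9 of 33 3xTg cells and 6 of 35 WT cells. WT cell 5 held 62.3% of the WT counts of Grin3a, at 432 CPM. Of the 15 cells with Grin3a, 7 also had Grin1. Grin2c and Grin2d were counted in few cells. Grin2c summed to 1 count in 3xTg cells and 5 counts in WT cells. Grin2d summed to 59 counts in 3xTg cells, 98.3% of them in cell 38 (46.5 CPM), and to 0 in WT cells, where 0 of 35 cells allows a share of cells with a count of up to 8.57% by a floor of 3 (exact 95% upper limit 10.003%). Neither limit covers neurons that express the gene without a read of it.

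**Figure D2:**
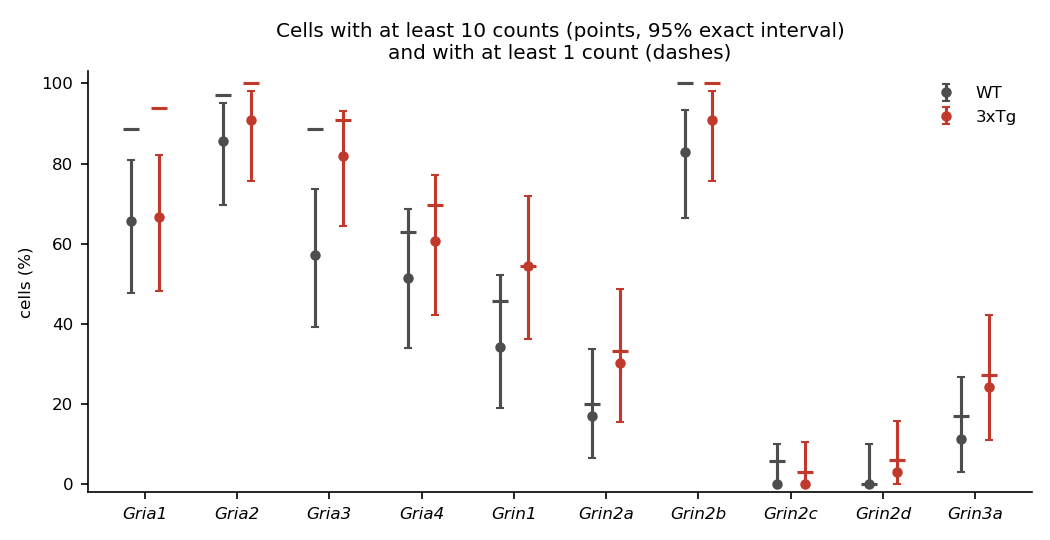
Percentage of cells with at least 10 counts of each subunit (points, with exact 95% binomial intervals) and with at least 1 count (dashes), WT in grey and 3xTg in red. Grin2b and Gria2 were counted in nearly all cells, Grin1 in 34 of 68, and the intervals of the genotypes overlapped for all 10 genes.

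Levels were compared between genes per kilobase, with the length of the GENCODE transcript inside the span that the files give each gene. Per kilobase, the order in WT cells was Gria2 (median 88.1 CPM per kilobase), Gria1 (13.1), Grin2b (7.02), Gria3 (6.04) and Gria4 (2.27), with the other 5 genes at a median of 0. In 3xTg cells the order was Gria2 (65.9), Gria3 (18.9), Grin2b (11.6), Gria1 (8.76), Gria4 (5.45) and Grin1 (2.11), with the other 4 at a median of 0. All neighbours in both orders had overlapping interquartile ranges, so with this length no gene was set apart from its neighbour beyond the spread over cells. Within a cell the lead of Gria2 was clearer. Gria2 exceeded Gria1 per kilobase in 58 of 68 cells, Gria3 in 59, Gria4 in 65, Grin1 in 63 and Grin2b in 59. The summed Gria level exceeded the summed Grin level in 63 of 68 cells, with a median ratio of 7.48 in WT cells (interquartile range 4.02 to 16.4) and of 4.31 in 3xTg cells (2.94 to 8.62). The interquartile ranges of this ratio overlapped between the genotypes.

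The share of each subunit within its receptor class was taken per cell, which removes the cell's total count from the measure. Of the AMPA subunits, Gria2 made up a median of 60.8% per kilobase in 33 WT cells with at least 20 Gria counts (interquartile range 47.8 to 72.1%) and of 54.1% in 32 3xTg cells (42.6 to 70.5%). These ranges overlapped over most of their width. By summed counts, Gria2 took 62.5% of the WT Gria counts and 61.9% of the 3xTg counts, Gria1 15.6% and 11.5%, Gria3 15.5% and 20.6%, and Gria4 6.498% and 6.07%. Gria2 was not the leading subunit in 16 of these 65 cells. Of the 8 such cells in WT, Gria1 led in 5, Gria4 in 2 and Gria3 in 1, whereas of the 8 in 3xTg, Gria3 led in 6 and Gria1 and Gria4 in 1 each. Several of these cells had abundant counts of another subunit beside few of Gria2. WT cell 6 had 965 counts of Gria1 and 73.5 of Gria2, and WT cell 5 had 1287 counts of Gria3 and 72 of Gria2. WT cell 7 had 100 counts of Gria4 and 0 of Gria2. Of the 3xTg cells, cell 38 had 366 counts of Gria3 and 7 of Gria2. Of the 16 cells, 12 were among the 36 cells of the first pair of runs with at least 20 Gria counts and 4 among the 27 of the second. The number of genes moved with this: 15 of the 16 cells had fewer genes than the median of all 68 cells, and its part in the shares was not tested.

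**Figure D3:**
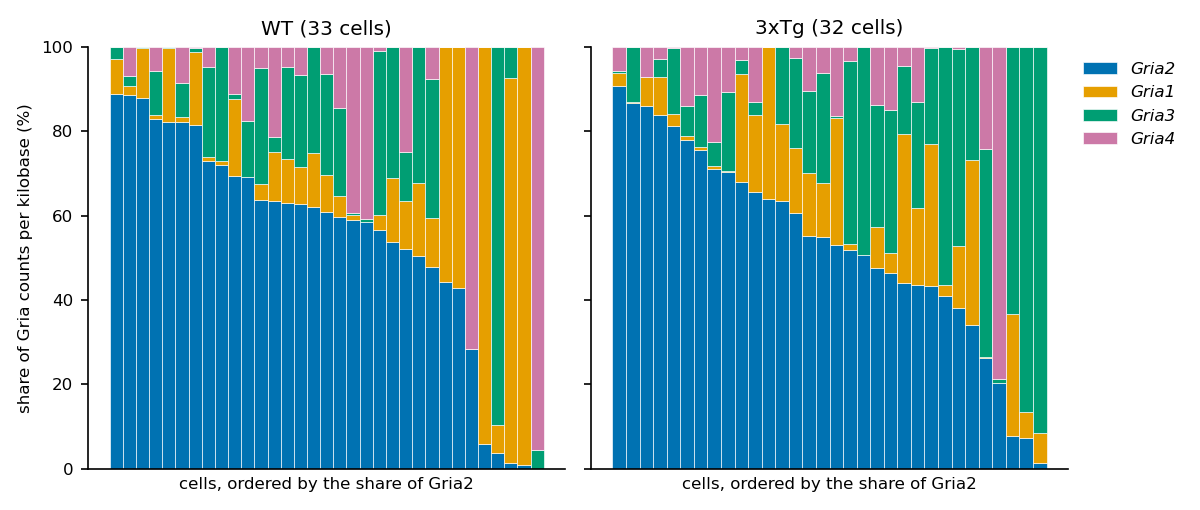
Share of each Gria gene in the Gria counts per kilobase of a cell, one bar per cell with at least 20 Gria counts, ordered by the share of Gria2, for 33 WT and 32 3xTg cells. Gria2 (blue) led in 25 WT and 24 3xTg cells, and the cells at the right of each panel were led by Gria1, Gria3 or Gria4.

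Among the GluN2 subunits, Grin2b accounted for nearly all counts in most cells. In the 27 cells of each genotype with at least 20 Grin2 counts, the median share of Grin2b per kilobase was 100% in WT and 99.2% in 3xTg. Grin2b led in 24 WT and 23 3xTg cells, Grin2a in 3 of each, and Grin2d in 3xTg cell 38. By summed counts, Grin2a took 16.3% of the WT Grin2 counts (exact 95% interval 15.1 to 17.7%) and 11.9% of the 3xTg counts (10.9 to 12.9%), but 1 WT cell supplied 51.99% of the WT Grin2a counts.

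Between genotypes, no subunit reached a 2-fold difference when counts were summed over the cells of each genotype. Of the 10 genes, 8 had at least 100 counts over all cells and were compared, which left out Grin2c and Grin2d. Of the 8, 0 were at least 2-fold higher and 0 at least 2-fold lower in 3xTg, where of all 13065 genes with that minimum 11.8% were at least 2-fold higher and 14.5% at least 2-fold lower. The median log2 ratio of the 8 was −0.15, beside −0.05 for all genes. Gria1 had the lowest ratio, with 3129 counts in 3xTg (85.2 CPM of the genotype) and 4794 in WT (141 CPM), which gave a log2 ratio of −0.73 (counting interval −0.79 to −0.66). Without WT cell 6 this ratio was −0.44. Grin2b had the highest ratio, at 3668 counts against 2692, which gave a log2 ratio of 0.34 (0.26 to 0.41), and leaving out any cell kept it between 0.16 and 0.45. Gria2 summed to 16903 counts in 3xTg and 19241 in WT (log2 ratio −0.30), Gria3 to 5625 and 4771 (0.13), and Gria4 to 1658 and 2002 (−0.38). When any single cell was left out, the ratio of Gria3 lay between −0.02 and 0.55 and that of Gria4 between −0.51 and −0.05. Grin1 summed to 1213 and 1067 counts (0.08), Grin2a to 502 and 527 (−0.18), and Grin3a to 567 and 575 (−0.13). For the 3 NMDA genes Grin1, Grin2a and Grin3a, single WT cells set these values: without WT cell 6 the ratio of Grin1 was 0.73, without WT cell 9 that of Grin2a was 0.83, and without WT cell 5 that of Grin3a was 1.24, past 2-fold.

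A second measure, log2(normalized count + 1) averaged over cells, weighs each cell alike and is lowered by cells at 0. On this scale the median gene was 0.38 higher in 3xTg, and 21.5% of the 13065 genes were at least 1 higher and 0.704% at least 1 lower. Of the 8 subunits, only Gria3 passed 1, averaging 5.80 in the 3xTg cells and 4.54 in the WT cells (difference 1.26), and 0 were lower by 1. Relative to the median gene, Gria3 was 0.89 higher, and in cells with at least 5000 genes its difference was 0.81. The counts of Gria3 sat in fewer cells of WT, where 4 cells held 50% or more of them, than of 3xTg, where 7 cells did. Over all cells Gria1 had a difference of −0.26 (−0.63 relative to the median gene), but 0.22 in cells with at least 5000 genes and 0.92 in the second runs. The difference of Gria2 was −0.14 without the cells that carry markers of other cell types. Over all cells the other 6 ranged from 0.35 for Gria2 to 0.75 for Grin1.

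Within the runs of label numbers, the differences of several subunits changed direction. In the first runs, Gria1 had 1549 counts in 21 3xTg cells and 3420 in 17 WT cells, a log2 ratio of −1.51, and in the second runs 1580 counts in 12 3xTg cells and 1158 in 15 WT cells, a ratio of 0.40. Grin2a went from a ratio of −1.55 in the first runs to 0.99 in the second, and Grin1 from 0.31 to −0.37. Gria4 likewise went from 0.07 to −0.32, and Grin3a from −0.48 to 0.15. Gria1 was thus lower in 3xTg in the first runs and higher in the second. For Gria3, the difference of the cell means was 2.23 in the first runs, where 19 of 21 3xTg cells and 8 of 17 WT cells had at least 10 counts, and 0.22 in the second runs, where 8 of 12 and 10 of 15 cells did. Ratios by sums kept their sign in both pairs of runs for Gria2 (−0.02 and −0.42), Gria3 (0.15 and 0.15) and Grin2b (0.62 and 0.22). The number of genes per cell moved with the runs, and its part in these differences was not tested. Differences between the runs of 1 genotype were as large as those between genotypes: the log2 ratio of WT cells 57 to 74 over WT cells 1 to 22 was −1.36 for Gria1, and that of 3xTg cells 76 to 92 over 3xTg cells 24 to 55 was 1.66 for Grin2a.

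**Figure D4:**
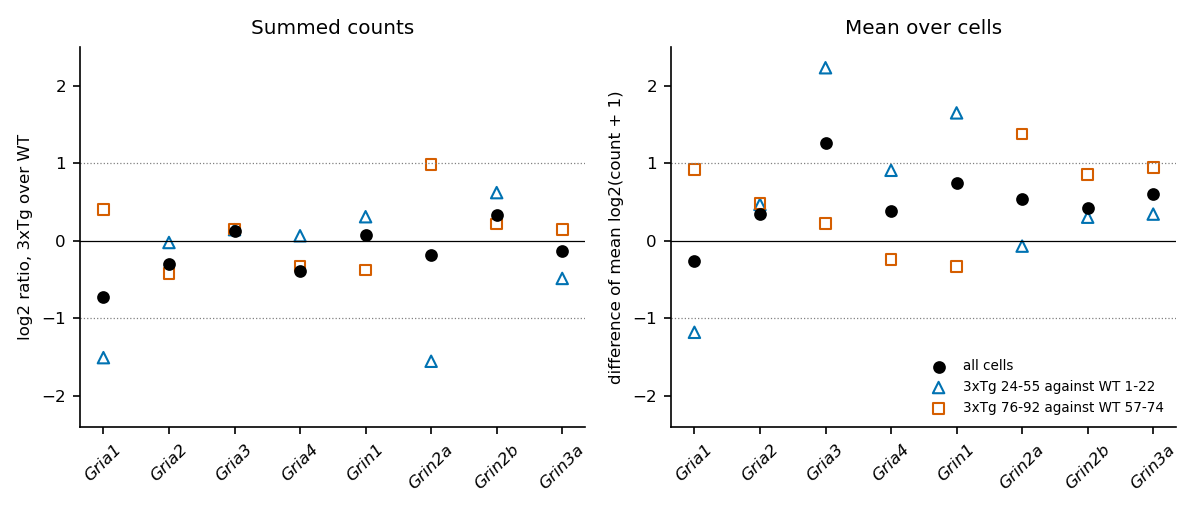
Difference between 3xTg and WT for the 8 subunits with at least 100 counts, by the log2 ratio of summed counts (left) and by log2(normalized count + 1) averaged over cells (right), over all cells (black) and within the first (blue) and second (orange) pair of runs of cell labels. Gria1, Gria4, Grin1, Grin2a and Grin3a lay on opposite sides of 0 in the 2 pairs of runs by sums, and Gria2, Gria3 and Grin2b stayed on the same side.

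The subunits varied largely apart from each other over cells. Over the 28 pairs of the 8 genes, Spearman's rho of log2(CPM + 1) had a median of 0.15 and ran from −0.11 (Gria1 with Gria4) to 0.40 (Gria2 with Gria3). Gria2 with Grin2b gave 0.37, Gria2 with Gria4 0.36, Gria1 with Grin3a 0.31 and Grin1 with Grin2a 0.30. The points of these correlations share mice, depth and the number of genes counted, which itself went with Gria4 (rho of 0.52), Grin1 (0.49) and Gria2 (0.39). A pair of genes was positive in both genotypes in 18 of 28 cases. Gria4 with Grin1 gave 0.53 in 3xTg cells and −0.08 in WT cells, and Gria3 with Grin3a gave −0.18 and 0.59. A cell held counts of 3 to 8 of the 10 subunits, with a median of 6 in 3xTg and 5 in WT, and this number followed the genes counted in the cell (rho of 0.82).

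**Figure D5:**
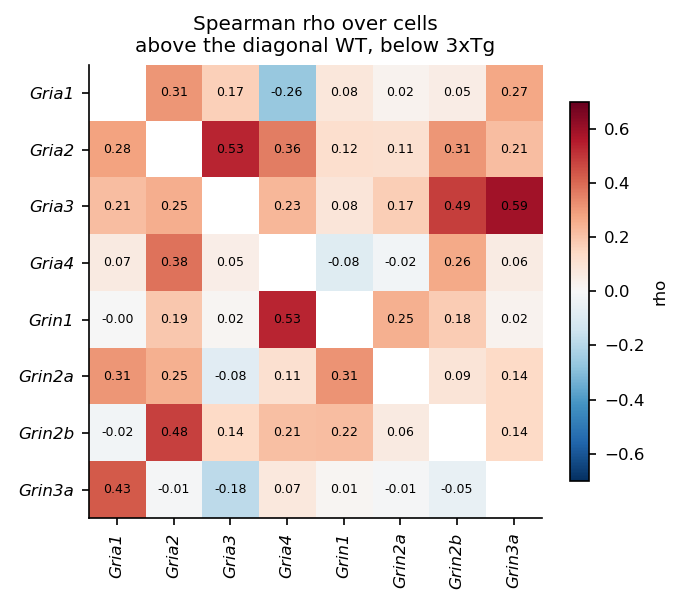
Spearman's rho of log2(CPM + 1) between each pair of the 8 subunits over the 35 WT cells (above the diagonal) and the 33 3xTg cells (below it), from blue (negative) to red (positive). Gria2 was positive with Gria3, Gria4 and Grin2b in both genotypes, and Gria3 with Grin3a lay furthest apart.

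The genes most alike in pattern to the summed Gria level over the 68 cells, among 4161 genes counted in at least 80% of the cells of a genotype, were Slc17a8 (rho of 0.67), Slc7a2 (0.66), Gabpb2 (0.66), Pot1b (0.66) and Gm6531 (0.65). Slc17a8 encodes the vesicular glutamate transporter VGLUT3 and Slc7a2 a transporter of cationic amino acids. The median gene had a rho of 0.09, and 1% of the genes lay above 0.60. For the summed Grin level the highest were Ube2c (0.52), Pcm1 (0.48), Bsn (0.47), Slfn9 (0.46) and Wars2 (0.46), with 1% of the genes above 0.40. Bsn encodes the presynaptic scaffold Bassoon. These genes also went with the number of genes per cell, with rho values from 0.25 for Wars2 to 0.61 for Slfn9.

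Genes that work with the receptors were read from 5 lists. Of their 42 genes with at least 100 counts, 9 were at least 2-fold higher by sums (21.4%) and 2 lower (4.76%), beside 11.8% and 14.5% of all genes. Of the 14 AMPA receptor auxiliary and assembly genes, 12 had at least 100 counts, of which 3 were at least 2-fold higher in 3xTg by sums and 0 lower, with a list median of −0.22 (−0.13 with Cacng4 at its lower bound). Cacng5, a transmembrane AMPA receptor regulatory protein that modulates channel gating, had 677 counts against 86 in WT, or a log2 ratio of 2.87 (counting interval 2.54 to 3.21) that was 2.48 without 3xTg cell 49 and 5.54 without WT cell 66. It was counted in 16 of 33 3xTg cells and 11 of 35 WT cells. Cacng4, another member of that family, had 157 counts in 9 of 33 3xTg cells and 0 counts in 35 WT cells, at least 48.5-fold higher against a floor of 3 counts over the WT cells. The third gene was Shisa6, which keeps AMPA receptors from desensitizing, at 213 and 74 counts (log2 ratio 1.42). Its ratio was 0.92 without 3xTg cell 89. Shisa6 was in fewer 3xTg cells (18 of 33) than WT cells (24 of 35) and its difference by the mean over cells lay 0.26 below that of the median gene.

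Of the 19 scaffold and trafficking genes, 17 passed the minimum, of which 3 were at least 2-fold higher in 3xTg and 1 lower, with a list median of −0.33. Dlg4, which encodes the scaffold PSD-95, had 176 counts in 12 3xTg cells and 14 counts in 4 WT cells (log2 ratio 3.54, counting interval 2.76 to 4.44, and 4.30 without WT cell 66). Dlg3, which encodes the related scaffold SAP102, had 328 and 141 counts (1.11), with 0.67 without 3xTg cell 42 and 2.06 without WT cell 66. Its ratio was 4.64 in the first runs and −0.04 in the second. Dlgap2 had 168 and 52 counts (1.58, and 2.60 without WT cell 21), with a difference by the mean over cells 0.03 below that of the median gene. Shank1, a scaffold of the deeper postsynaptic density, was counted in all 68 cells and had 1386 counts against 3640 in WT, a log2 ratio of −1.50 that was −1.83 in the first and −0.95 in the second runs. Frrs1l and Grm4, both named after their values were seen, were listed at 0 in all cells.

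Of the 10 other ionotropic receptor and accessory genes, 7 passed the minimum, with 2 at least 2-fold higher and 1 lower and a list median of 0.0046. Grik1, a kainate receptor subunit, had 473 counts in 3xTg, 63.3% of them in cell 49, and 1 count in WT, a log2 ratio of 8.78 with a counting interval of 6.29 to 14.1, 7.37 without cell 49 and 0.96 in the second runs. Grik2, another kainate subunit, had 242 and 471 counts (−1.07), and −0.64 without WT cell 94. Its ratio was 3.41 in the first runs and −1.09 in the second. Grik4 was at the threshold with 132 and 61 counts (1.004), with 0.15 without 3xTg cell 48 and 2.30 without WT cell 63. Of the 8 metabotropic receptors, 3 passed the minimum, with 1 higher, 0 lower and a list median of 0.47. It was Grm7, a presynaptic receptor that lowers release, at 640 and 284 counts (1.06). The ratio of Grm7 was 0.73 without 3xTg cell 45, 1.76 without WT cell 95 and −0.09 in the second runs. Of the 3 editing enzymes, 0 passed 2-fold, and their median was 0.19. Adarb1, the ADAR2 gene, whose enzyme edits the Gria2 codon shown above and which was singled out after its values were seen, was counted in all 68 cells, at a median of 17.01 CPM in WT and 30.5 CPM in 3xTg, with 889 and 1523 summed counts (log2 ratio 0.67, 0.80 in the first and 0.38 in the second runs).

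Markers of other cells were read as well, since RNA from neighbours of the patched neuron can enter the pipette. The 7 microglia markers summed to 433 CPM in WT and 151 CPM in 3xTg, with a range over cells of 0 to 2869 and 0 to 5215. Of them C1qb had 10935 counts in WT and 2797 in 3xTg (log2 ratio −2.08), C1qa 1713 and 618 (−1.58), with ratios of −3.95 and −2.26 without 3xTg cell 43, and C1qc 210 and 798 (1.82, but −1.10 without that cell and 3.46 without WT cell 72). Tmem119 had 356 counts, all in 1 WT cell. Csf1r had 669 counts in WT and 422 in 3xTg (−0.77), and P2ry12 461 and 389 (−0.35). Cx3cr1, counted in 59 cells, was slightly higher in 3xTg, at 402 counts in WT and 522 in 3xTg (0.27). The 9 oligodendrocyte lineage markers summed to 293 CPM in WT (7.94 to 2542 over cells) and 94.6 CPM in 3xTg (5.66 to 583), where Mbp gave 8757 and 2802 counts (−1.75). The 7 astrocyte markers summed to 396 CPM in WT (6.13 to 2510) and 249 CPM in 3xTg (11.6 to 924), and Aldh1l1 was at 0. The most abundant of them, Slc1a2, singled out after its values were seen, was counted in all 68 cells, with 7906 counts in WT and 8639 in 3xTg (log2 ratio 0.018). Gfap had 31 counts in WT and 56 in 3xTg (0.74). Slc1a3 had 4428 counts in WT and 431 in 3xTg (−3.47), with −4.67 without 3xTg cell 26 and −2.64 without WT cell 5. Gja1 had 1104 counts in WT and 26 in 3xTg (−5.52), with −6.84 without 3xTg cell 48 and −1.29 without WT cell 73. Within the runs, the ratio of Gja1 was 4.28 in the first and −10.1 in the second. Of the 5 endothelial markers, 4 were at 0 in all cells.

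Of the neuron markers, the 3 GABA neuron genes summed to 44.2 CPM in WT and 28.8 CPM in 3xTg, with Gad1 at 271 and 134 counts (−1.13, and 0.53 without WT cell 7). The 3 glutamate neuron genes summed to 55.5 CPM in WT (0 to 763) and 26.3 CPM in 3xTg (0 to 154), with Slc17a6 at 1205 and 550 counts (−1.24, and 0.96 without WT cell 60) and Slc17a7 at 275 counts in WT, 99.6% of them in cell 14, and 0 in 3xTg. Over cells, the summed Gria level went with the GABA neuron genes (rho of 0.52) and the glutamate neuron genes (0.51) more than with the astrocyte (0.14), oligodendrocyte (0.16) and microglia genes (0.09), and the dopamine neuron genes gave a rho of −0.23. The glutamate neuron list holds Slc17a8, the gene named above as most alike to the Gria level, which was counted in 64 cells. The GABA neuron list holds Gad2, which was counted in all 68 cells, at 1167 counts in WT and 920 in 3xTg (−0.45). Gad1 was counted in 11 cells. The 8 dopamine neuron markers had a median log2 ratio of 0.35, and of them Foxa2 passed 2-fold, at 281 counts in WT and 703 in 3xTg (1.21), but was −0.85 without 3xTg cell 24 and 2.04 without WT cell 57. The part of these markers in the subunit levels was not tested beyond the values without the 10 cells that carry Pvalb, Tmem119, P2ry12 or Aldh1l1: without those cells Gria1 had a log2 ratio of −0.71, Gria3 of 0.16 and Grin2b of 0.33, and Grin1 of −0.25.

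The subunits are related in sequence, and 90 bases of a trimmed read can be nearly shared. The best window of that length was identical at 95.6% between Gria2 and Gria4, at 94.4% between Gria1 and Gria3, at 92.2% between Gria2 and Gria3 and between Gria1 and Gria4, and at 90% or less for other pairs, beside an alignment minimum of 90%. The longest run of identical bases in a pair was 41, between Gria2 and Gria4. In the deposited table, 55.3% of all values above 0 were not whole numbers. The share was 79.1% for Gria2 and 37.1% for Gria3, whose best windows with another subunit are named above, and 88.6% for Grin1, which has no window that similar to any of them. How the authors' counting made these values was not given in the sources used here. Whether reads were divided between the subunits was not tested.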

How the data were processed

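Poly(A) RNA of single patched neurons was amplified and sequenced by the authors, who trimmed reads and used Strand NGS 4.0 with RefSeq transcripts of mm10 for alignment at 90% identity or more, removed duplicates and normalized with DESeq2. The authors deposited 1 table with estimated counts per gene and cell, and with log2 normalized values, which were used here as an alternative only. Counts were rounded and summed over the cells of a genotype, and ratios were taken of CPM with exact 95% Poisson or binomial intervals (Python 3.11.15, scipy 1.17.1), for genes with at least 100 counts. A gene at 0 in 1 genotype counted as past 2-fold where a floor of 3 counts gave that. Means over cells used median-of-ratios size factors over 787 genes and a pseudocount of 1. TMM factors came from edgeR 4.0.16. Functions were tested on simulated data. Transcript lengths and sequences came from GENCODE M21. All 10 members are named. Of the lists, genes past 2-fold by sums with a cell mean on the same side of the median gene are named, and others where a count of 5 or fewer included them. The members and lists were chosen with earlier results of these data known. The study kept cells with Th, Slc6a3 and Slc18a2 and without Pvalb, Tmem119, P2ry12 and Aldh1l1, and compared cells as replicates, which is not repeated here. Alternatives were other scalings, thinning each cell to 700471 counts (7 shallower cells left out), other pseudocounts and minimums, and leaving out cells. Some items of the lists and sequences are not reported here.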

Additional observations from a re-analysis of the deposited data

How the results depend on the processing

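No paired analysis was possible because the genotypes share no label numbers. The count of 0 subunits past 2-fold by sums stayed at 0 with size-factor, TMM or equal-weight CPM scaling, with thinned cells, without cells carrying markers of other cells, and in the second runs. The count was 1 (Gria3) by the mean over cells, 1 (Grin3a) in cells with at least 5000 genes, a choice made after seeing the data that left out 4 3xTg and 7 WT cells, 2 (Gria1 and Grin2a) in the first runs, and 0 to 1 when cells were left out in turn, with 1 only without WT cell 5. The median log2 ratio of the subunits was 0.49 by the mean over cells, −0.28 without cells carrying other markers, 0.16 in cells with at least 5000 genes, 0.023 in the first and 0.15 in the second runs, and −0.28 to −0.051 when cells were left out in turn. Size factors moved the median of all genes from −0.05 to 0.08 and TMM to 0.06. The count of subunits past a difference of 1 by the mean over cells was 2 (Gria3 and Grin1) with a pseudocount of 0.1, 0 with a pseudocount of 10 and 3 (Gria1, Gria3 and Grin1) in the first runs, and 1 to 1 when cells were left out in turn. It was also 1, but for Grin1 in place of Gria3, in cells with at least 5000 genes, and for Grin2a in the second runs. Of the 42 genes of the 5 partner lists, 11 were past 2-fold by sums, 7 by the mean over cells and 25 (59.5%) in the first runs, where 40.7% of all genes were. The share of all genes past 2-fold was 26.3%, and 6.89% among genes counted in 80% of the cells of a genotype. The share of Grin2b in WT was 74.8% by summed counts per kilobase. With coding length in place of transcript length, 1 pair of neighbours in the 3xTg order, Gria2 over Gria3, did not overlap. The causes were not tested.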
